A study of Mus musculus with 8 samples.

Results

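The collagen genes of LSL-MYCN;Dbh-iCre neuroblastomas were taken as all single-gene probe sets whose symbol has the form Col, number, a, number. This gave 82 of 34958 single-gene probe sets, for 42 of 18194 genes: 11 fibrillar collagens, 8 basement membrane collagens (types IV, XV and XVIII) and 23 others. All 8 tumors arose in mice in which human MYCN, silenced by a loxP-flanked stop cassette in the ROSA26 locus, is switched on from the CAG promoter by an iCre recombinase under the Dbh promoter, and all were excised untreated. Tumors 1 to 6 grew in the adrenal and tumors 7 and 8 in the superior cervical ganglion, part of the sympathetic chain in the neck. Each tumor was profiled once, from total RNA, on an Affymetrix Mouse 430 version 2 array. The mice were of mixed strain background, their ages are not given in the labels, and normal adrenals were not analysed here, so levels describe differences among tumors that share the same transgenes.

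Collagens are secreted proteins of 3 chains wound into a triple helix, and they form most of the extracellular matrix. Fibrillar collagens are assembled into the fibrils of connective tissue, type IV collagen forms the sheet-like network of basement membranes around vessels and nerves, and the remaining types coat fibrils, form fine filaments or span cell membranes. In neuroblastoma, collagen-rich matrix is laid down mainly by stromal cells such as fibroblasts, vessel wall cells and Schwann cells, while the neuroblasts themselves stem from the sympathetic nervous lineage.

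Col1a2, Col3a1 and Col8a1, from 3 different chromosomes, differed widely over the tumors, with a standard deviation (SD) of 0.996, 1.34 and 1.20 in log2 values. Their promoters are shown because the 3 genes varied together over the tumors. The 250 bases before the transcription start of each (RefSeq, GRCm38.p6) are written 5′ to 3′ on the strand of the gene. Capitals mark matches, on either strand, to the CCAAT box, to TATAAA and to GGGCGG, the core of a GC box.
Col1a2, chr6:4505368-4505617, plus strand: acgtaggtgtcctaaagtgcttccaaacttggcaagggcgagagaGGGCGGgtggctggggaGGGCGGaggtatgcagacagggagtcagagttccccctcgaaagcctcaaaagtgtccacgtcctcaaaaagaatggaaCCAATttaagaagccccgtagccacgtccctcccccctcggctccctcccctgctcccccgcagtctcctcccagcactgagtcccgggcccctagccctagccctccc
Col3a1, chr1:45311288-45311537, plus strand: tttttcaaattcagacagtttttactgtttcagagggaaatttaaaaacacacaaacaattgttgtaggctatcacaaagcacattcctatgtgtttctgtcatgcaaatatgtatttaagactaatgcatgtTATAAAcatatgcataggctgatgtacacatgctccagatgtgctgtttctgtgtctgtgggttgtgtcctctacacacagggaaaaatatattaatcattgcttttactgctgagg
Col8a1, chr16:57754738-57754987, minus strand: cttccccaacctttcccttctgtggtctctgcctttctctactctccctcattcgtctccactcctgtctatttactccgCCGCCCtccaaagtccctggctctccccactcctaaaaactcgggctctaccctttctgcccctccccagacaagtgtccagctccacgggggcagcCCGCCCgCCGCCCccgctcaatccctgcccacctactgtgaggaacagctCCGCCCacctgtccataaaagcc
The 3 windows did not hold the same letters: Col1a2 had CCAAT and GGGCGG, Col3a1 only TATAAA, and Col8a1 only GGGCGG, 4 times. No match overlapped a match to another of the 3 motifs.

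RefSeq windows were at hand for 33 of the 42 collagen genes, 36 windows in all. In the 250 bases before the start, GGGCGG occurred in 21 of 36 collagen windows (58.3%), against 32.7% of 32851 promoters of all genes. CCAAT occurred in 13 of 36 (36.1%, against 33.9% of all promoters) and TATAAA in 5 of 36 (13.9%, against 12.4%). These are counts of letters and not binding sites.

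Some collagen genes lie side by side. Col4a1 and Col4a2, the partner chains of the common type IV collagen, start head to head on chromosome 8, and the first exons used in the promoter table overlap by 22 bases. The overlap, at chr8:11312805-11312826 and read on the plus strand, is shown because both genes begin within it, with a GGGCGG match in capitals.
Col4a1 and Col4a2, shared start: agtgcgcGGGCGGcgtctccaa
Col3a1 and Col5a2 are neighbours on chromosome 1, and Col6a1 and Col6a2 on chromosome 10.

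Levels are log2 expression values as the authors deposited them, 1 probe set per gene, and they are compared over tumors and never between genes, because probe sets differ in how brightly they bind. A gene was called detected in a tumor above the 95th percentile of 86 sensory receptor probe sets on that array, which lay between 6.71 and 7.21. Of the neuroblast markers, 8 of 9 measured were detected in all 8 tumors, and Gata3, a transcription factor of sympathetic development, in 7. Some tumors stood apart, and some results that rest on them are also given without them. In tumor 7 the neuroblast markers averaged -2.95 relative to their mean over the 8 tumors (tumor 5: 0.53). In tumor 6 the hepatocyte markers averaged 5.18 on the same scale. For Gapdh, whose 3′ and 5′ probe sets drift apart as RNA degrades, tumor 1 had a log2 gap of 5.51, against 0.47 to 1.57 elsewhere.

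In these tumors 18 of the 42 collagen genes were detected in all 8 tumors, 14 in none and 10 in 1 to 7. Over all genes, 54.8% were detected in every tumor and 30.8% in none, beside 42.9% and 33.3% of the collagens. Among fibrillar collagens 7 of 11 were detected in all tumors and only Col11a2, a chain of cartilage fibrils, in none. Of the basement membrane class, Col4a1, Col4a2, Col15a1 and Col18a1 were detected in every tumor, whereas Col4a3, Col4a4, Col4a5 and Col4a6, the type IV chains of specialised membranes such as that of the kidney glomerulus, were detected in none. Of the 23 others 7 were detected throughout and 9 nowhere: Col6a5, Col8a2, Col9a2, Col10a1, Col13a1, Col17a1, Col19a1, Col22a1 and Col26a1. A gene under the limit is not shown to be silent. With log2 5 as the limit, 38 collagens (90.5%) passed in all tumors and 1 in none, beside 83.5% and 8.83% of all genes. With the mean of probe sets, 11 collagens (26.2%) were detected in all tumors, beside 45.4% of all genes.

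The detected collagens varied more over the tumors than most genes. Of the 24 detected in at least 4 tumors, 6 had an SD over tumors above 1 on the log2 scale (Col9a1, Col3a1, Col8a1, Col14a1, Col5a2 and Col1a1), against 2.71% of all genes detected in at least 4 tumors. The median SD of the 24 was 0.55, and that of all such genes 0.29. The median was 0.88 for the 8 fibrillar members, 0.56 for the 4 basement membrane members and 0.50 for the 12 others. Single tumors weigh on these SDs. Among the 6 with an SD above 1, tumor 5 was the lowest for Col3a1, Col8a1, Col14a1, Col5a2 and Col1a1, and tumor 7 for Col9a1. The SDs were not computed without these tumors. At the other end, Col27a1, Col7a1, Col9a3 and Col25a1 had an SD between 0.11 and 0.17, below the 0.26 that marks the 95th percentile of SDs over the receptor probe sets, so their values did not vary more than those of probe sets taken as background.

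**Figure D1:**
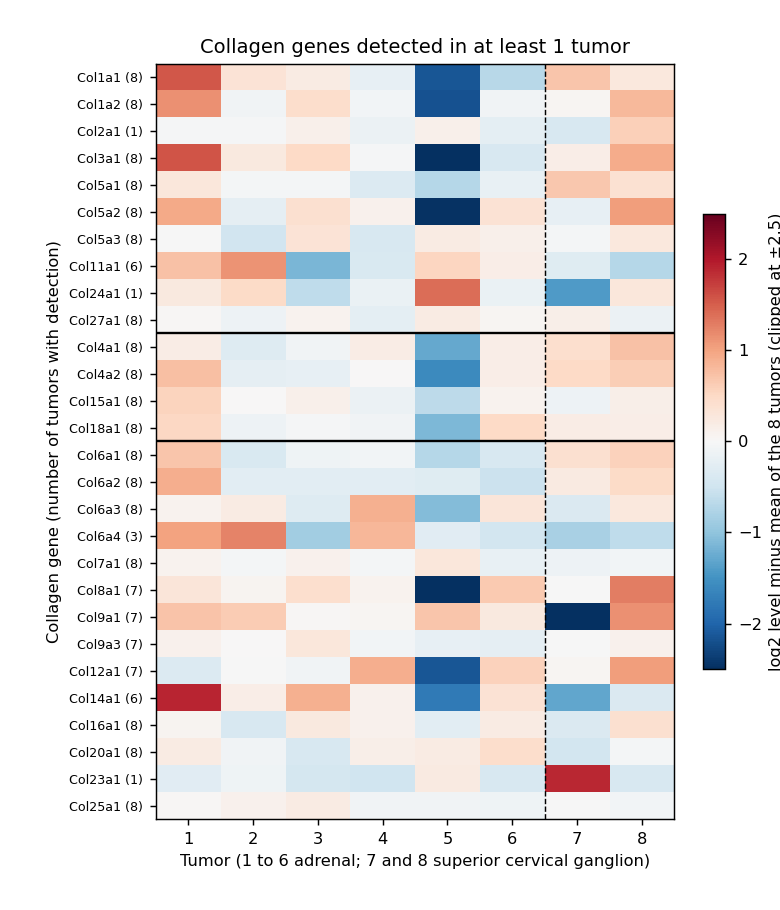
Each row is 1 of the 28 collagen genes detected in at least 1 tumor, each column a tumor, and colour gives the log2 level minus the gene's mean over the 8 tumors; black lines part the fibrillar, basement membrane and other classes, and the number in brackets counts the tumors with detection. Tumor 5 is blue for the type I and III chains, Col5a1, Col5a2 and all basement membrane rows and pale or red for the other fibrillar rows, tumor 1 is mostly red, and Col9a1 and Col23a1 stand out in tumor 7.

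Among fibrillar collagens, tumor 5 was the lowest for the type I and type III chains and for Col5a1 and Col5a2. Col3a1, the chain of type III collagen of loose connective tissue and vessel walls, had log2 values of 13.63, 12.31, 12.56, 12.03, 9.11 and 11.65 in adrenal tumors 1 to 6 and 12.22 and 12.98 in ganglion tumors 7 and 8. Tumor 5 lay 5.82-fold below the next lowest tumor and 9.17-fold below the median of the other 7. The other 7 tumors spanned 11.65 to 13.63, and tumor 1 was the highest.

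Col1a2, a chain of type I collagen, the most abundant fibril collagen of connective tissue, had 13.14, 11.90, 12.43, 11.93, 9.81 and 11.92 in the adrenal tumors and 12.04 and 12.80 in the ganglion tumors. Its partner Col1a1 had 11.15, 9.95, 9.80, 9.41, 7.46 and 8.90, and then 10.29 and 9.88. Tumor 5 was 4.69-fold below the median of the other tumors for Col1a2 and 5.32-fold for Col1a1. For Col1a1 the tumors other than 5 were spread more evenly, from 8.90 in tumor 6 to 11.15 in tumor 1.

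Col5a2, a chain of type V collagen, which is built into type I fibrils and limits their width, had 11.18, 10.01, 10.63, 10.34, 7.76 and 10.60 in the adrenal tumors and 10.02 and 11.27 in the ganglion tumors. It was lowest in tumor 5, by 7.13-fold against the median of the others, and highest in tumor 8. Its partner Col5a1 had 8.42, 8.09, 8.09, 7.79, 7.41 and 7.96 and then 8.80 and 8.51. On this probe set both ganglion tumors lay above all adrenal tumors, and tumor 5 was again the lowest. A second probe set of Col5a1, detected in 7 tumors, spanned 5.97 in tumor 5 to 8.84 in tumor 1, and tumor 1 lay above the ganglion tumors (8.33 and 8.45).

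Other fibrillar members did not follow this order. Col11a1, a minor fibril chain best known from cartilage, was detected in 6 tumors with 8.14, 8.52, 6.26, 7.03, 7.94 and 7.58 in the adrenal and 7.09 and 6.69 in the ganglion tumors, so tumor 5 was among the high tumors and tumor 3 was the lowest. Col5a3 ranged from 8.02 to 8.82 (SD 0.30) and was lowest in tumor 2. Col24a1 and Col2a1, the latter the main cartilage fibril chain, were each detected in a single tumor, Col24a1 in tumor 5 at 7.29 (4.49 to 6.37 in the others) and Col2a1 in tumor 8 at 6.92. Col24a1 was chosen for its values after they were seen.

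**Figure D2:**
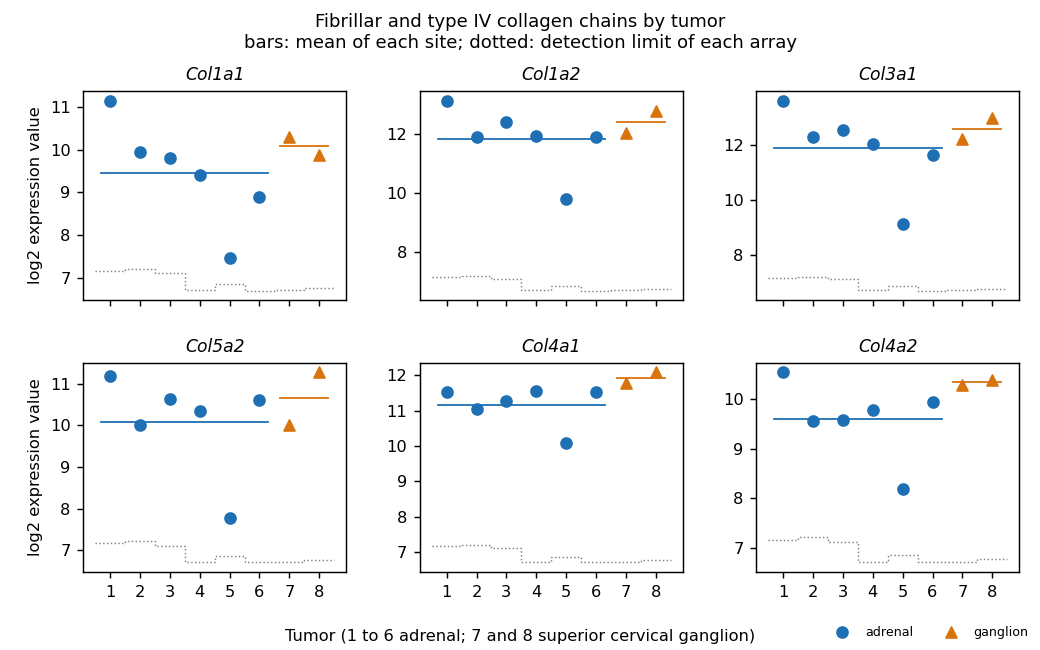
Log2 expression value (y axis, a separate scale for each gene) of 6 collagen chains in each tumor, with circles for adrenal and triangles for ganglion tumors, horizontal bars for the mean of each site and a dotted line for the detection limit of each array. Tumor 5 is the lowest point in all 6 plots, and both ganglion tumors lie above every adrenal tumor only for the Col4a1 probe set shown.

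In basement membranes, Col4a1 had 11.54, 11.04, 11.28, 11.55, 10.09 and 11.53 in the adrenal tumors and 11.78 and 12.09 in the ganglion tumors. Col4a2 had 10.54, 9.56, 9.58, 9.78, 8.18 and 9.95, and then 10.28 and 10.39. Tumor 5 was the lowest for both, 2.73-fold below the median of the other tumors for Col4a1 and 3.40-fold for Col4a2, and the remaining 7 tumors of Col4a1 lay within 11.04 to 12.09.

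Col18a1, whose released end is the angiogenesis inhibitor endostatin, had 9.47, 8.82, 8.92, 8.85, 7.82 and 9.44 and then 9.13 and 9.11. Col15a1, a related chain found beside basement membranes, had 8.67, 8.12, 8.24, 7.96, 7.46 and 8.19 and then 7.97 and 8.26. Both were lowest in tumor 5 and highest in tumor 1, as was the mean of the class.

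Among the other collagens, the chains of type VI, which form beaded filaments close to cells, split in their patterns. Col6a1 had 9.69, 8.63, 8.90, 8.93, 8.29 and 8.60 in the adrenal tumors and 9.40 and 9.57 in the ganglion tumors. Col6a2 had 10.53, 9.36, 9.35, 9.34, 9.30 and 9.08, and then 9.85 and 10.10. For both, tumors 1, 7 and 8 were the 3 highest, and the remaining adrenal tumors lay close together. Col6a3, the largest chain of the same molecule, had 10.50, 10.61, 10.08, 11.30, 9.32 and 10.70 and then 10.04 and 10.67, with tumor 4 the highest and tumor 5 the lowest. Col6a4 was detected only in tumors 1, 2 and 4, at 8.11, 8.34 and 7.93, with 6.23 to 6.81 in the other 5; it was chosen after its values were seen.

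Col8a1, a chain of the network collagen made in vessel walls, had 9.78, 9.53, 9.88, 9.56, 6.68 and 10.12 in the adrenal tumors and 9.46 and 10.76 in the ganglion tumors. Col12a1, a fibril-associated collagen, had 7.59, 7.92, 7.84, 8.85, 5.78 and 8.50 and then 7.99 and 8.97. In tumor 5 both lay under the detection limit of 6.87, and the other 7 tumors were above theirs. A second probe set of Col8a1 was also lowest in tumor 5 (6.47, against 7.83 to 9.55 elsewhere). A second probe set of Col12a1 was detected in all 8 tumors with values of 7.02 to 7.43 (tumor 5: 7.23) and r = 0.13 with the one used, so the low level of Col12a1 in tumor 5 holds for 1 probe set only. Col14a1, another fibril-associated collagen, had 9.12, 7.40, 8.11, 7.32, 5.46 and 7.58 and then 5.92 and 6.86, highest in tumor 1 and under the limit in tumors 5 and 7.

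Col9a1, a fibril-associated collagen known from cartilage and the eye, had the highest SD of all collagens (1.47). Its values were 9.62, 9.54, 8.93, 8.94, 9.60 and 9.15 in the adrenal tumors and 5.39 and 10.04 in ganglion tumors 7 and 8. Only tumor 7 was low, under its detection limit of 6.72, while tumor 5 had a level within the range of the other adrenal tumors. A second probe set of Col9a1 was detected in all 8 tumors at 7.24 to 8.17, again with tumor 7 the lowest but by a small margin (r = 0.55 with the one used). Of the partner chains, Col9a2 was detected in no tumor and Col9a3 varied between 6.90 and 7.41. The cartilage and bone markers other than Sox9 were detected in no tumor (7 of 8 measured).

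Col23a1, a membrane-spanning collagen chosen after its values were seen, was detected only in tumor 7, at 8.08, with 5.68 to 6.42 in the other tumors. Tumor 7 thus held both the lowest Col9a1 and the highest Col23a1, and it is the tumor in which neuroblast markers averaged -2.95. Whether the low marker level has a part in these values was not tested.

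**Figure D3:**
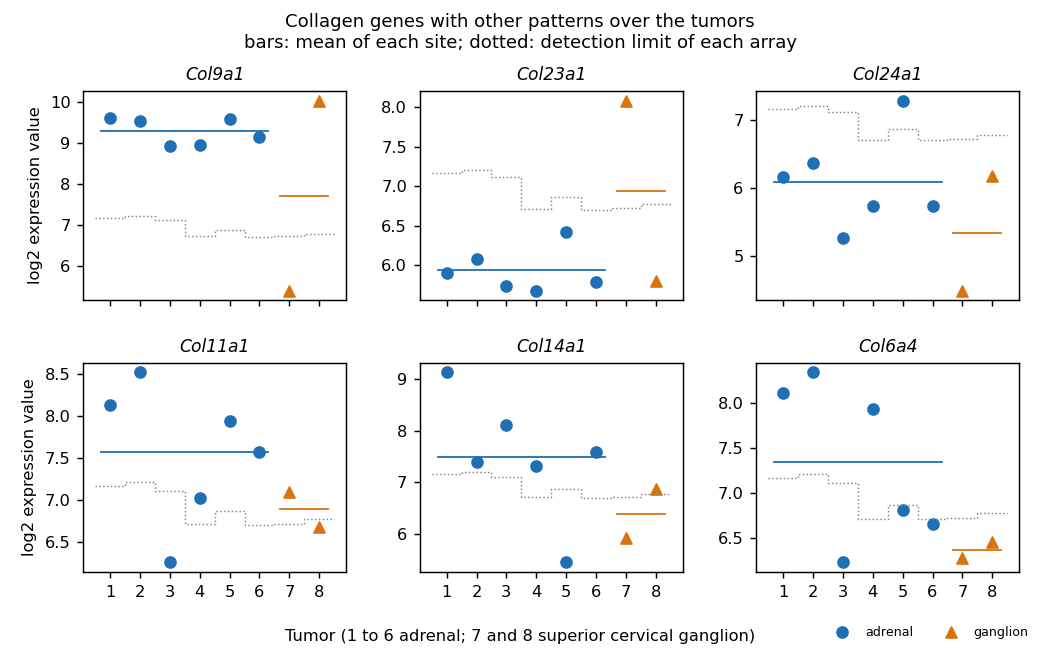
Log2 expression value (y axis, a separate scale for each gene) in each tumor for 6 further collagens. Symbols, bars and dotted lines are as in the plot of fibrillar and type IV chains. Like the type I and III chains, Col14a1 is lowest in tumor 5 and highest in tumor 1. Col9a1 is low and Col23a1 high in tumor 7 alone, Col24a1 passes its limit in tumor 5 alone, and Col14a1 falls under the limit in tumors 5 and 7.

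Tumor 5 was the lowest tumor for 14 of the 24 collagens detected in at least 4 tumors (58.3%), against 15.2% of all such genes. These were 5 of 8 fibrillar members, all 4 basement membrane members and 5 of 12 others. For 8 of them (on the probe sets used, Col1a1, Col1a2, Col3a1, Col5a2, Col4a2, Col18a1, Col8a1 and Col12a1) tumor 5 was lower than every other tumor by over 1 on the log2 scale, as for 0.404% of all genes. In tumor 5 the median difference from the mean of the other tumors was -0.82 over these collagens and -0.02 over all such genes. The count was 14 without tumor 1 and 17 without tumors 1, 6 and 7. With other tumors left out such a count can only stay or rise, and the share of all genes is not given for these sets. In tissue RNA, fewer cells of a type and less RNA per cell cannot be told apart.

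Tumor 1 was the highest for 9 of the 24 collagens (Col1a1, Col1a2, Col3a1, Col4a2, Col15a1, Col18a1, Col6a1, Col6a2 and Col14a1) and for 23.6% of all genes. It is the tumor with the widest gap between the 3′ and 5′ probe sets of Gapdh, and the part of RNA quality in its high values was not tested. Tumor 8 was the highest for 6 of 24 (Col5a2, Col4a1, Col8a1, Col9a1, Col12a1 and Col16a1), against 7.02% of all genes. Tumor 7 was the lowest for 2 of 24, Col9a1 and Col20a1, although 28.3% of all genes were lowest there.

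To describe how far the collagens moved together, each was correlated with Col1a2 over the 8 tumors. Of the other 23 detected in at least 4 tumors, 12 had a Pearson r above 0.7, against 5.91% of all genes, and the median r was 0.72 (0.06 for all genes). The 12 were Col3a1, Col5a2, Col15a1, Col4a2, Col8a1, Col1a1, Col18a1, Col4a1, Col6a1, Col14a1, Col5a1 and Col12a1, from all 3 classes. Without tumor 5 there were 6 of 23 (Col1a1, Col3a1, Col5a2, Col15a1, Col6a1 and Col6a2) against 5.5% of all genes, and the median r was 0.47. Col9a1, Col5a3, Col20a1, Col11a1, Col27a1 and Col7a1 had r between -0.50 and 0.00. All points share the same 8 arrays, so these values describe the tumors and carry no test.

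Of the 12 listed pairs of chains that build 1 trimer, 6 had both chains detected in at least 4 tumors and were tested by exact permutation over the 40320 orders of the tumors, two-sided, with Benjamini-Hochberg adjustment over the 6. Col4a1 and Col4a2 had r = 0.94 (exact permutation, adjusted p = 0.00759; Spearman's rho = 0.81, adjusted p = 0.0653), and Col4a2 ranked 3 among 16253 other genes by its r with Col4a1. Col6a1 and Col6a2 had r = 0.90 (exact permutation, adjusted p = 0.00759; rho = 0.88, adjusted p = 0.0435). Col1a1 and Col1a2 also had r = 0.90 (exact permutation, adjusted p = 0.0128; rho = 0.64, adjusted p = 0.192).

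These 3 pairs differed in how much single tumors carried. Without the 2 tumors farthest from the median of the first gene, r was 0.73 for Col4a1 and Col4a2 (exact permutation, p = 0.104), 0.79 for Col6a1 and Col6a2 (exact permutation, p = 0.075) and 0.30 for Col1a1 and Col1a2 (exact permutation, p = 0.542). Of the 3 pairs, r fell most for the type I chains, where tumors 1 and 5 were left out. Leaving out the tumors farthest from the median narrows the range of the first gene, which can itself lower r. With 6 tumors none of the 3 pairs had an exact permutation p under 0.05. Without tumor 5 alone r was 0.95 for Col6a1 and Col6a2, 0.77 for Col4a1 and Col4a2 and 0.70 for Col1a1 and Col1a2, and only 1 of the 6 pairs, Col6a1 and Col6a2, passed after adjustment. Within the 6 adrenal tumors r was 0.94 for the type IV pair, 0.88 for Col6a1 and Col6a2 and 0.95 for the type I pair.

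The other pairs did not pass. Col5a1 and Col5a2 had r = 0.65 (exact permutation, adjusted p = 0.122; rho = 0.43, adjusted p = 0.449), with tumor 7 high for Col5a1 and among the low tumors for Col5a2. Col6a3 was not related to its partners at this number of tumors, with r = 0.30 to Col6a1 (exact permutation, adjusted p = 0.581; rho = 0.14, adjusted p = 0.752) and r = 0.05 to Col6a2 (exact permutation, adjusted p = 0.900; rho = -0.14, adjusted p = 0.752).

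**Figure D4:**
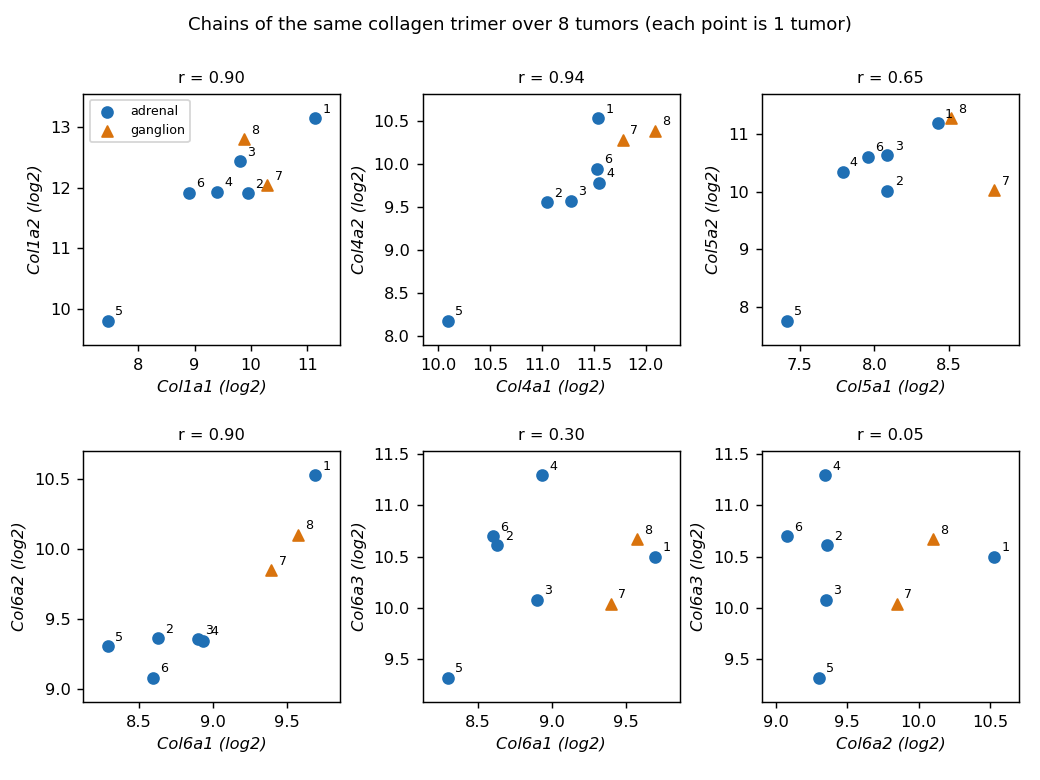
Each plot sets the log2 values of 2 chains of 1 collagen against each other, with 1 point per tumor, labelled by its number, circles for adrenal and triangles for ganglion tumors, and Pearson's r above. Tumor 5 sits apart at the lower left for the type I, IV and V pairs, while for Col6a1 and Col6a2 tumors 1, 7 and 8 form the upper end and Col6a3 follows neither partner.

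The genes around the collagens were described by lists of enzymes, receptors and matrix partners. Of 31 measured genes of collagen folding, modification and cross-linking, 25 were detected in at least 4 tumors and tumor 5 was the lowest for 8 of these. The most variable was Sparc, a matrix protein that binds collagen, with 8.82 in tumor 5 and 10.80 to 12.19 in the others. Lox, the enzyme that starts cross-linking, was highest in the ganglion tumors (8.48 and 9.07, against 6.58 to 8.11 in the adrenal tumors). Fkbp14, a collagen-folding enzyme of the endoplasmic reticulum, had another order, with 9.98 in tumor 2, 9.79 in tumor 5 and 7.27 in tumor 7.

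Of the 10 collagen receptors measured, 6 were detected in at least 4 tumors and tumor 5 was the lowest for 1 of them, a share near the 15.2% of all genes. Itgb1, the common beta chain of the collagen-binding integrins, was lowest in tumor 1 at 7.45, with 8.89 to 10.73 in the others. Tumor 1 has the widest gap between the Gapdh probe sets, and the part of RNA quality in this value was not tested. Itga1, an alpha chain that pairs with Itgb1, ranged from 7.11 in tumor 7 to 10.04 in tumor 2. Adgrg1, an adhesion receptor that binds collagen III, ranged from 7.34 in tumor 7 to 9.64 in tumor 3.

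Of 14 measured genes of collagen breakdown and its inhibitors, 9 were detected in at least 4 tumors and tumor 5 was the lowest for 4. Mmp14, a membrane-bound collagenase, had 7.23 in tumor 5 and 8.42 to 9.26 in the others. The inhibitor Timp1 had 6.99 in tumor 5 against 7.27 to 9.13 elsewhere. The inhibitor Timp3 ranged from 8.18 in tumor 7 to 11.18 in tumor 8.

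Interstitial partners, a list of matrix genes such as Dcn, Fn1, Tnc, Postn and Eln, were lowest in tumor 5 for 9 of 12 detected in at least 4 tumors. Their mean over 15 measured genes was -1.06 in tumor 5 and between -0.18 and 0.61 in the other tumors. Dcn, which encodes the fibril-binding proteoglycan decorin, had 10.09, 8.74, 10.03, 7.86, 7.14 and 9.06 in the adrenal tumors and 7.54 and 9.53 in the ganglion tumors. Lum, the related lumican, was low in tumors 5 and 7 (5.74 and 5.54) and highest in tumor 1 (8.59), as was Col14a1. Mfap5, a microfibril protein, ranged from 5.95 in tumor 5 to 9.19 in tumor 8.

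Basement membrane partners were lowest in tumor 5 for 5 of 9 detected in at least 4 tumors. Nid1, the linker between laminin and type IV collagen, had 6.65 in tumor 5, under the limit, and 9.03 to 9.99 in the others. Lama4, a laminin chain of vessels, had 6.40 in tumor 5 and 7.48 to 8.58 in the others, while Lamb2, another laminin chain, was lowest in tumor 7, where it was under the limit, with 8.24 to 9.04 in the others.

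The fibroblast, pericyte and smooth muscle, and endothelial marker lists had their lowest mean in tumor 5. The Schwann cell list had its lowest in tumor 7. Among members detected in at least 4 tumors, tumor 5 was the lowest for 5 of 9 fibroblast markers. It was the lowest for 4 of 9 pericyte and smooth muscle and 6 of 8 endothelial markers, against 15.2% of all such genes. The 12 fibroblast markers, of which 3 were detected in all tumors and Twist2 and Tcf21 in none, averaged -0.80 in tumor 5 and between -0.45 and 0.69 in the others, as means of gene-centred log2 values. The 12 pericyte and smooth muscle markers, 8 detected in all tumors and Myh11 and Cnn1 in none, averaged -0.47 in tumor 5 and -0.29 to 0.38 in the others. The 12 endothelial markers, 4 detected in all tumors and Tie1 in none, averaged -0.53 in tumor 5 and -0.32 to 0.54 in the others.

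Single markers differed in their order. Twist1 was detected in 4 tumors, with 9.88, 9.78, 9.23 and 7.10 in tumors 1, 2, 7 and 8. Thy1, which neurons also express, was highest in tumor 5 at 11.45. Acta2, the actin of smooth muscle, had 8.90 in tumor 5 against 9.54 to 11.50 elsewhere. Pdgfrb, a pericyte receptor, was lowest in tumor 3 at 8.89, with 9.07 to 10.81 elsewhere. Tagln, a smooth muscle protein, had 7.03 in tumor 5 and 7.74 to 8.86 in the others. Cdh5, the endothelial cadherin, had 5.81 in tumor 5 and 6.53 to 8.05 in the others, whereas Vwf was lowest in tumor 3 at 6.99 and Esam varied only between 7.66 and 8.84. Dcn and Lum stand in both the fibroblast and the interstitial list.

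Col1a2, Col3a1, Col4a1 and Col4a2 were each correlated with the 3 marker list means, which made 12 relations. By Pearson's r, 11 of the 12 passed at an adjusted exact permutation threshold of 0.05, and by Spearman's rho 0 did. The highest was Col3a1 with the fibroblast markers (r = 0.89, exact permutation, adjusted p = 0.0101; rho = 0.90, adjusted p = 0.0548). Col4a2 with the endothelial markers had r = 0.84 (exact permutation, adjusted p = 0.0177; rho = 0.83, adjusted p = 0.0923), and Col4a1 with the fibroblast markers, the relation that did not pass, r = 0.64 (exact permutation, adjusted p = 0.0866; rho = 0.43, adjusted p = 0.299). Without the 2 tumors farthest from the median of the list mean, r lay between 0.22 and 0.74 with no exact permutation p below 0.0903. Those left out were tumors 1 and 5 or tumors 5 and 8, and a test on 6 tumors can miss a relation. Without tumor 5 alone, r with the fibroblast markers was 0.86 for Col3a1 and 0.16 for Col4a1, the highest and lowest of the 12. None of the 12 passed after adjustment without tumor 1, without tumor 5 or without tumor 8. Within the 6 adrenal tumors r was 0.89 for Col3a1 with the fibroblast markers and 0.85 for Col4a2 with the endothelial markers.

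The adipocyte markers, 1 of 6 measured detected in all tumors and Cidec and Lep in none, were also lowest in tumor 5, with a mean of -0.63 there, -0.51 in tumor 8 and 1.00 in tumor 6. Schwann cell markers averaged -1.36 in tumor 7 and 0.70 in tumor 3 (tumor 5: -0.54). Among them Fabp7 had 4.62 in tumor 5 and 4.15 in tumor 7, and Gfra3 was low in tumor 7 alone at 7.08. Cdh19 ranged from 4.40 in tumor 7 to 9.10 in tumor 8. The list did not move as a whole: Mbp and Pmp22 were highest in tumor 7 (10.60 and 11.93). Both were chosen after their values were seen. Macrophage markers averaged -0.45 in tumor 5, -0.53 in tumor 7 and 0.57 in tumor 8. Neuroblast markers averaged 0.53 in tumor 5, within the 0.11 to 0.58 of the tumors other than 7. How much of the collagen differences goes with the amount of each cell type was not tested.

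**Figure D5:**
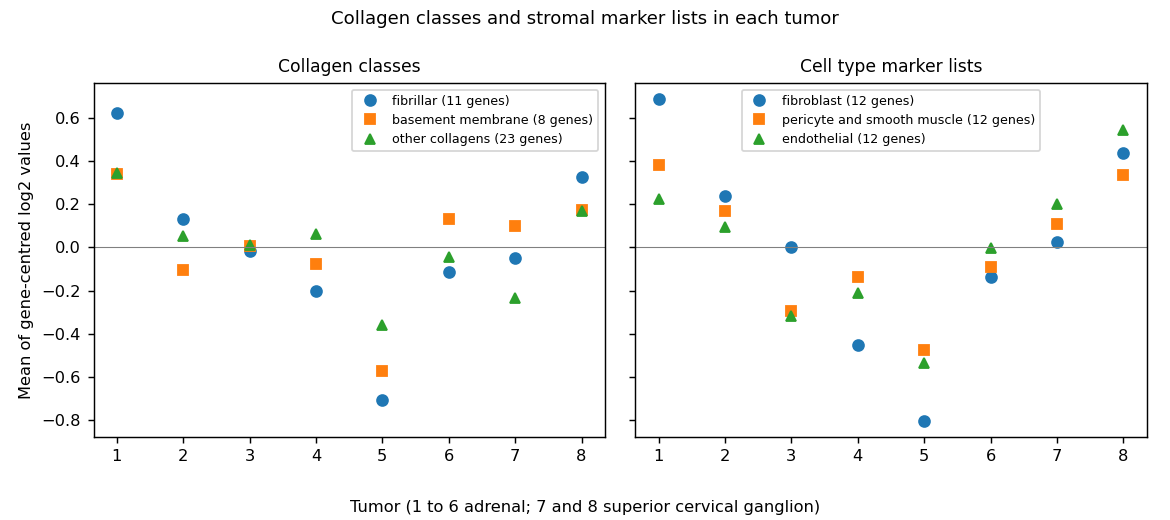
Mean of gene-centred log2 values (y axis; 0 is the mean over the 8 tumors) in each tumor, on the left for the 3 collagen classes and on the right for 3 marker lists. All 6 means are lowest in tumor 5, from -0.36 for the other collagens to -0.80 for the fibroblast markers, and the fibrillar and fibroblast means are highest in tumor 1 (0.62 and 0.69).

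As means of gene-centred values over all measured members, the fibrillar class ran from -0.71 in tumor 5 to 0.62 in tumor 1, the basement membrane class from -0.57 to 0.34 and the other collagens from -0.36 to 0.34 in the same tumors. Without tumor 5 the range of the fibrillar mean narrowed from 1.33 to 0.82 and that of the basement membrane mean from 0.91 to 0.44. The median over fibrillar members spanned 0.57.

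Between the 2 sites, no collagen differed past the threshold. Testing covered the 16254 genes that passed log2 5 in 2 or more tumors, of which limma called 3 (0.0185%) at an adjusted p under 0.05 and 761 had an unadjusted p under 0.05. Of the 40 collagens among them, 0 were called and 1 had an unadjusted p under 0.05, and 21 of the 40 were higher in the ganglion tumors. The median difference, ganglion minus adrenal, was 0.02 for the collagens and -0.03 for all genes. With only 2 ganglion tumors, of which tumor 7 stood apart, intervals were wide.

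The collagen with the lowest p was Col5a1, at 7.96 ± 0.34 (SD, n = 6) in adrenal and 8.66 ± 0.21 (SD, n = 2) in ganglion tumors, a difference of 0.70 (95% confidence interval 0.14 to 1.25, SE 0.24, limma adjusted p = 0.903). For Col4a1 the means were 11.17 ± 0.57 (n = 6) and 11.93 ± 0.22 (n = 2), a difference of 0.76 (-0.08 to 1.60, limma adjusted p = 0.903). These 2 collagens were also the only ones of the 40 whose groups did not overlap, against 4.42% of all genes. The separation rests on the probe set used: on a second one tumor 1 lay above both ganglion tumors for Col5a1 (8.84, against 8.33 and 8.45) and for Col4a1 (9.75, against 9.02 and 9.71). For Col3a1 the difference was 0.72 with an interval of -1.44 to 2.88, and for Col1a2 0.56 with -1.05 to 2.18, so neither interval excludes a change in either direction.

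The size of the difference for 2 members turned on tumor 8. With tumor 7 as the only ganglion tumor, Col9a1 differed from the adrenal tumors by -3.91 and Col23a1 by 2.14. A second probe set of Col9a1 did not show a drop of this size, with 7.24 in tumor 7 and 7.31 to 7.68 in the adrenal tumors. With both ganglion tumors Col9a1 differed by -1.58 (-3.71 to 0.55) and Col23a1 by 1.00 (-0.11 to 2.11), since tumor 8 had 10.04 and 5.80, close to the adrenal tumors. Of the lists around the collagens, 0 members of the processing, receptor, breakdown and both partner lists were called. In that order, 5 of 30, 2 of 10, 1 of 14, 2 of 15 and 2 of 14 had an unadjusted limma p under 0.05. Over all genes it was 761 of 16254. The called genes of the marker lists were Acta1 and Tnnt3, both of skeletal muscle, higher in the ganglion tumors by 2.21 and 1.52 (limma adjusted p = 0.00401 and 0.0138). Tnnt3 was under the detection limit in all tumors.

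Further probe sets of a gene mostly had the same order over tumors. Of the 42 genes 27 had several single-gene probe sets, with 40 further probe sets in all, of which 23 were detected in no tumor. Of the 14 further probe sets detected in at least 4 tumors, 11 had r above 0.7 with the one used (median 0.89, lowest 0.13). A second probe set of Col3a1 gave 4.44 in tumor 5 and 8.21 to 10.82 in the others, with r = 0.99 to the first, and a second one of Col1a2 gave 7.27 in tumor 5 and 9.68 to 11.62 in the others, with r = 0.98. For Col25a1 the probe set used was flat, while another had 8.37 in tumor 2 and 4.81 to 6.39 in the others, so which level applies to Col25a1 in tumor 2 is unsettled. The 3 with r of 0.7 or less were of Col12a1 (0.13), Col9a1 (0.55) and Col11a1 (0.70).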

How the data were processed

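For each array the authors deposited log2 expression values per probe set. RMA and Partek 6.6 stand in the submitters' notes on processing and gcRMA in the Methods; which was applied is not settled by the sources used here. Background correction and normalization are thus already in the values, and array normalization can compress fold changes. The number of arrays limits the precision. No 2 arrays held identical values. Nothing in the labels ties tumors to mice, so p-values measure only the spread between these samples, which may share an animal.

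Of 45101 probe sets, 34958 had 1 gene symbol, 932 several and 9211 none; the last 2 kinds were not used. Symbols were updated through Entrez identifiers (34754 matched, GRCm38.p6). The probe set with the highest mean stood for each gene. Sites were compared with limma 3.58.1 (R 4.3.3; lmFit, eBayes, Benjamini-Hochberg, threshold 0.05), tested on simulated data first; other values came from Python 3.11.15 (scipy 1.17.1, numpy 2.4.6, pandas 2.3.3), and plots from matplotlib 3.10.9. Promoter sequences are from RefSeq.

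The collagens, classes and lists were chosen with earlier results of these data known. Values in every tumor are given for members detected in at least 4 tumors, up to the 6 with the highest SD per class, and for both chains of each tested pair; of other lists, for genes called between sites and up to 3 with the highest SD. Fmod was the undetected interstitial partner. Hepatocyte (9 measured), skeletal muscle (12), adipocyte (6), adrenal cortex (8) and salivary gland (9) markers were also read. The adrenal cortex mean was highest in tumor 6 (1.17), the skeletal muscle mean in tumor 7 (1.14) and the salivary gland mean in tumor 8 (0.77). That salivary gland mean rests on 1 gene, Pip, with 12.79 in tumor 8 and 4.61 to 5.04 elsewhere. Amy1 was highest in tumor 5 at 10.41, and 5 of the 9 were detected in no tumor. Alternatives covered normalization, filter, probe set, detection limit, variance prior, rank correlation, class members and tumors left out.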

Additional observations from a re-analysis of the deposited data

Results flagged for a closer look

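Of 31 collagen genes and class means, 9 held a tumor far from the rest over the 8 tumors. Over the 6 adrenal tumors 5 did, and 11 different genes were flagged in all. For a single reading, chance gives a flag about 1 time in 20. Many of these genes vary together over the same arrays, and the share of all genes flagged was not computed. The counts therefore cannot be set against that rate. The measure is the gap from the extreme tumor to its neighbour as a share of the whole range. Over 8 tumors, tumor 5 was the low one for Col1a2 (0.627), Col3a1 (0.563), Col5a2 (0.640), Col4a2 (0.585), Col18a1 (0.609), Col8a1 (0.682) and Col12a1 (0.566). Over the 6 adrenal tumors, tumor 5 was again the low one for Col1a2 (0.627), Col5a2 (0.658), Col4a1 (0.656) and Col8a1 (0.829). Tumor 1 was the high one for Col6a2 over the adrenal tumors (0.806). Tumor 7 was low for Col9a1 (0.762) and high for Col23a1 (0.694) over 8 tumors.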

How the results depend on the processing

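The number of collagens called between the sites was 0 under every alternative except that without tumor 8, with a range of 0 to 2 over tumors left out. For all genes the 3 calls became 6 with the mean of probe sets, 10 without tumors 6 and 7, and 2 to 954 with each tumor left out in turn (11 without tumor 7). Collagens detected in all tumors numbered 38 with log2 5 as the limit and 11 with the mean of probe sets, and 18 to 20 with a tumor left out. Collagens detected in none numbered 1 with log2 5. The range of the fibrillar mean over tumors, 1.33, was 0.57 for the median of members and 0.82 to 1.33 with a tumor left out. That of the basement membrane mean, 0.91, was 1.67 over detected members, 0.63 for the median and 0.44 to 0.91. That of the other collagens, 0.70, was 0.98 over detected members and 0.27 for the median. Of the chain pairs, 3 passed, against 1 by Spearman's rho and 1 to 4 with a tumor left out (1 without tumor 5). Of the marker relations, 11 passed, against 0 by Spearman's rho and 0 to 10 with a tumor left out (0 without tumor 1, 5 or 8, and 7 without tumor 7). The collagens with r above 0.7 to Col1a2 numbered 6 to 13, with 6 without tumor 5; this count and that of collagens lowest in tumor 5 (14 to 17) were checked with alternatives chosen after seeing the data. Where the construction of an alternative does not show it, the cause was not tested. No paired analysis was possible because the sites share no replicate numbers. Signal near the detection limit and 2 ganglion tumors limit what can be seen.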
